A study of Mus musculus with 10 samples.

Results

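Fasn, Scd1, Scd2, Olah and Coasy encode enzymes that build, release and desaturate fatty acids or make the coenzyme A that carries them. Their transcripts were followed by 14 of the 24192 spots of a mouse cDNA array: 2 spots for Fasn, 3 for Scd1, 6 for Scd2, 1 for Olah and 2 for Coasy. Spots were taken by the gene name printed in the array files, and every spot with such a name was kept. Olah appears there as expressed sequence AI607300 and Coasy under the name of a RIKEN cDNA, and the RefSeq annotation of GRCm38.p6 pairs these older names with the current symbols. Olah and Coasy were chosen by their log2 ratios on these same arrays, so all values are given as a description.

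The tissue was the paraventricular nucleus of the hypothalamus (PVN), a cell group that drives the hormonal stress response, punched from brains of Mus musculus pups. In one group the litter had been separated from its mother for 24 h before the pups were killed, and in the other it had not. Each group held 6 animals, joined by 2 into 3 samples, and amplified RNA of the 3 samples was then mixed into 1 pool per group. Both pools were put on each of 10 arrays. On 5 of them, called forward arrays here, Cy5 marked the separated pool, and on the other 5, called swapped arrays, Cy3 marked it; arrays are numbered by their replicate number in the labels. The arrays are repeats of 1 comparison, so the SD over 10 arrays given below is array error, the spread between animals or litters is not measured, and no p-value was computed. The sources used here give no strain, age or sex. All directions rest on the dye that the labels state for each channel and would reverse if the dyes were exchanged. The labels and the array files number the 2 channels in opposite order, so channels were matched by dye. The array titles name the non-separated animals on forward and the separated animals on swapped arrays. In the direction used here, the authors' deposited log2 ratios ran as non-separated over separated on every array. Which direction is right was not tested.

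Fasn is the multi-domain enzyme that assembles palmitate from acetyl and malonyl units bound to coenzyme A. Scd1 and Scd2 encode stearoyl-CoA desaturases, which put the first double bond into saturated fatty acids, and Scd2 is the form best known from mouse brain. Olah is a thioesterase that cuts medium-chain fatty acids off fatty acid synthase, known mainly from the mammary gland of rats, and Coasy carries out the final steps of coenzyme A synthesis. Fatty acid synthesis and desaturation are active in the developing brain, where glial cells use the products for membranes and myelin.

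In the separated pool, Olah and 1 of the 2 Coasy spots read at least 1.5-fold lower and below 0 on every array, the rule of size and sign used here to call a difference. Olah had a log2 ratio of separated over non-separated of -0.77 ± 0.24 (SD, n = 10 arrays) and Coasy spot 1 of -0.72 ± 0.56. The signal of both spots cannot be told from that of the brighter empty spots, as given below. In such tissue pools, fewer cells of a type and less RNA per cell also cannot be told apart. None of the Fasn, Scd1 or Scd2 spots was called. Of the 14 spots, 2 were thus called lower and 0 higher, where 0.18% of all 22818 spots that are not controls were called lower and 0.0745% higher. Both called spots belong to genes chosen by these same ratios, so the share of members called was set by that choice. Fasn spot 1 lay 1.19-fold lower and Scd2 spot 3 lay 1.20-fold higher, each with 1 sign on all 10 arrays. Just inside the 1.5-fold limit was Coasy spot 1 at 1.64-fold, and just outside it was Scd2 spot 1 at 1.48-fold.

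**Figure D1:**
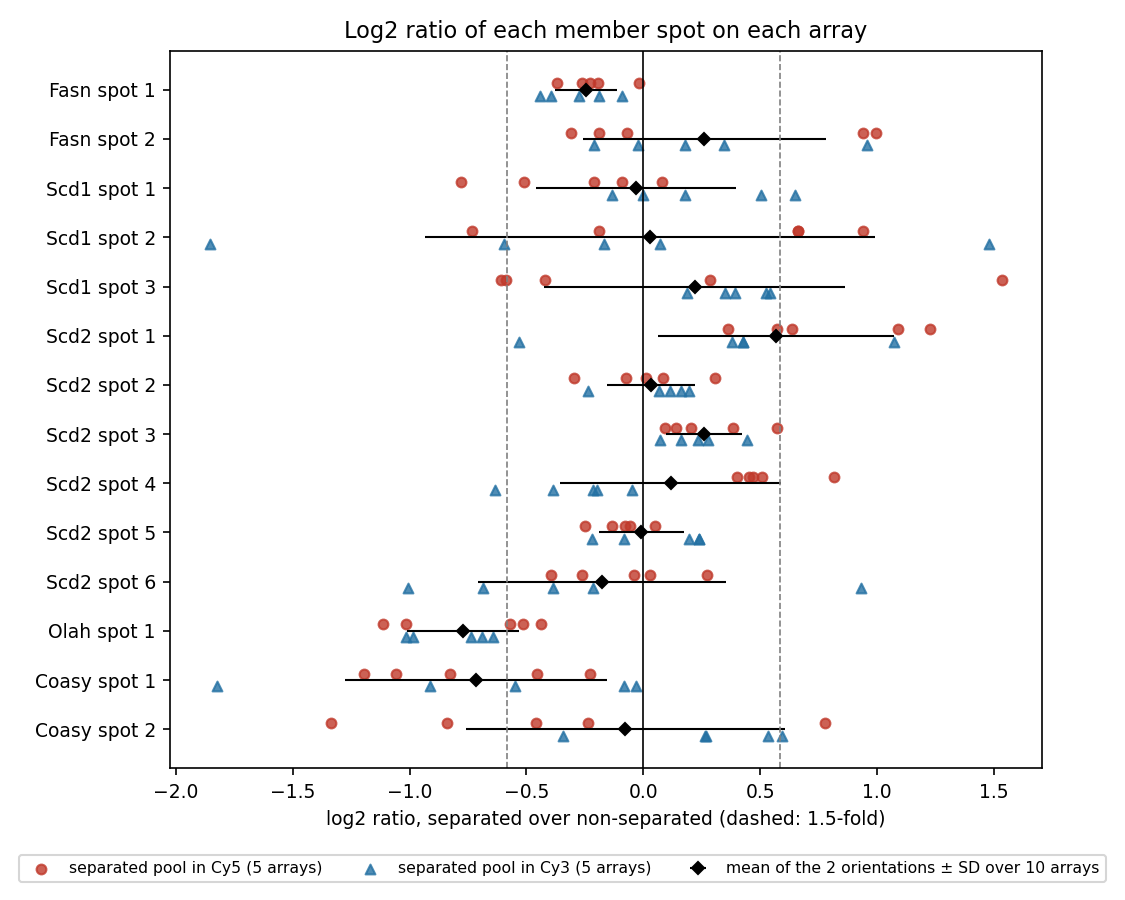
Each point is the log2 ratio of separated over non-separated (horizontal axis) of 1 of the 14 spots (rows) on 1 array, red circles for the 5 forward arrays (Cy5 marks the separated pool) and blue triangles for the 5 swapped arrays (Cy3 marks it). Diamonds are the mean of the 2 orientation means and bars the SD over 10 arrays. All points of Olah, Coasy spot 1 and Fasn spot 1 lie below 0, those of Scd2 spot 3 lie above 0, and those of Scd2 spot 4 part by dye.

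How far each spot stands out from the glass sets what its ratio can show. A spot was counted as above empty spots where at least 1 channel exceeded the 95th percentile of the 1170 empty spots on at least 8 of 10 arrays, which 2552 spots did. This held for 5 of the 14 spots: Fasn spot 1, Scd1 spot 3 and Scd2 spots 2, 4 and 5. Scd1 spot 1 and Scd2 spot 3 passed on 7 arrays each. Olah, both Coasy spots, Fasn spot 2 and Scd1 spot 2 passed on 0 arrays, so their signal cannot be told from the brighter empty spots. All 14 spots exceeded the 75th percentile of empty spots on at least 8 arrays, a level chosen after the data were seen. Among the 2552 spots, 0.47% were called lower and 0.157% higher, 0.627% in either direction, and the 5 member spots among them gave 0 calls. At any size, 7 of the 14 spots had a mean below 0, against 49.8% of all spots. These 7 include every Olah and Coasy spot, genes chosen by these same ratios, so that share was partly set by the choice. Of the 5 spots above empty spots, 2 had a mean below 0, against 46.6% of the 2552.

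**Figure D2:**
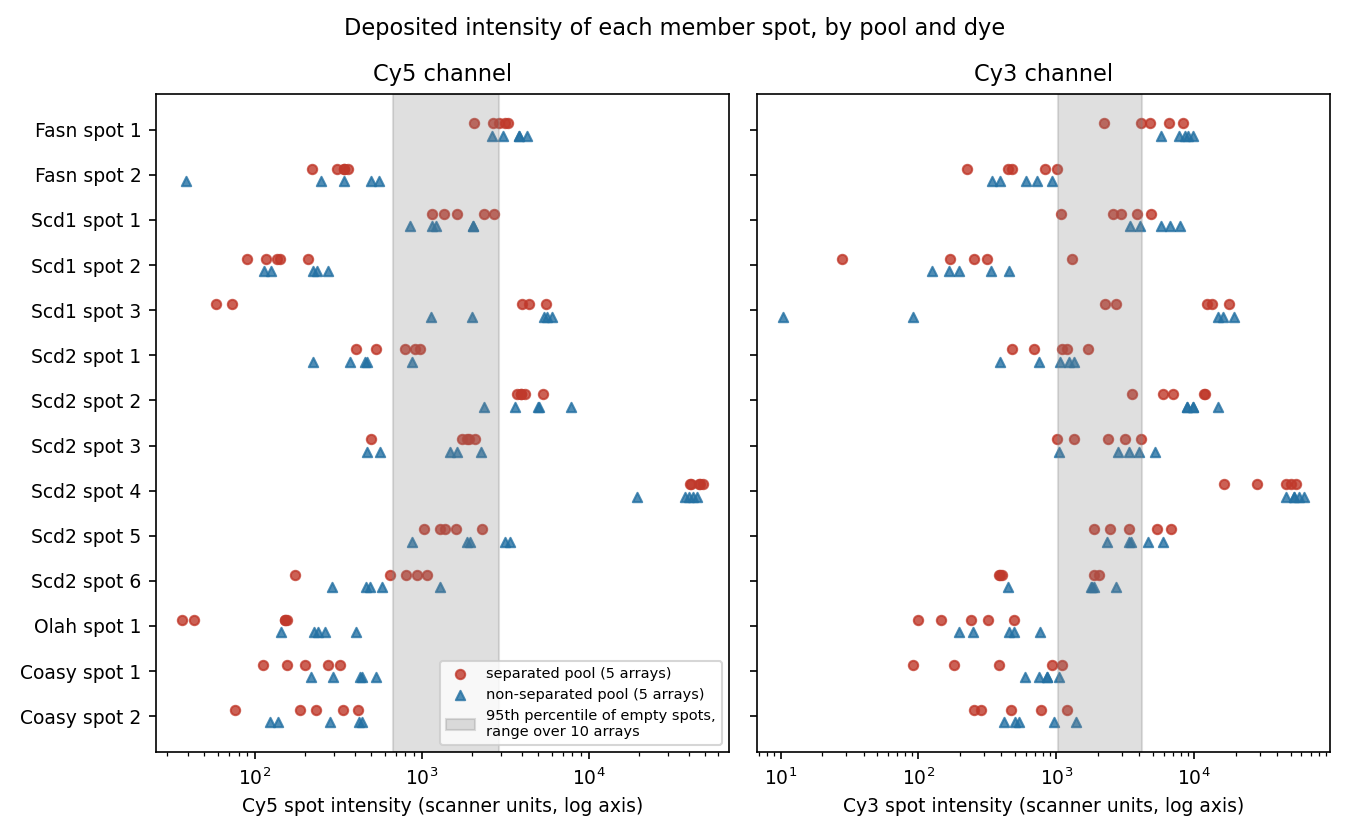
Deposited spot intensity (scanner units, log axis) of each of the 14 spots in the Cy5 channel (left) and Cy3 channel (right), red circles for the separated pool and blue triangles for the non-separated pool, 5 arrays each. The grey band spans the 95th percentile of empty spots over the 10 arrays, 670 to 2913 in Cy5 and 1031 to 4192 in Cy3, and Olah lies below it in both channels.

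Fasn was followed by 2 spots with different outcomes. On the forward arrays, the log2 ratios of Fasn spot 1 were -0.23, -0.26, -0.02, -0.37 and -0.19. On the swapped arrays they were -0.09, -0.44, -0.40, -0.19 and -0.28. The 2 orientations overlapped and every array lay below 0, with a mean of -0.25 ± 0.13. Fasn spot 2, which was not above empty spots, lay at 0.26 ± 0.52 with 5 arrays on each side of 0. The median over the 2 spots was 0.01 ± 0.30, so the lower value rests on spot 1 alone. Below 0 on every array at any size were 0.92% of all spots and 4.27% of those above empty spots.

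Deposited intensities of Fasn spot 1, before dye effects are removed, show what the normalised ratio is made of. The separated pool read 2049 to 3308 in Cy5 on the forward arrays, against 5699 to 9768 for the non-separated pool in Cy3. On the swapped arrays it read 2219 to 8254 in Cy3, against 2641 to 4273 in Cy5. The pool in Cy3 was the brighter on 9 of 10 arrays, the exception being swapped array 3, so the raw readings followed the dye more than the pool.

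Scd1, the desaturase that is prominent in liver and fat, showed no difference with a common sign. Scd1 spot 1 lay at -0.03 ± 0.43, with a mean of -0.30 on forward and 0.24 on swapped arrays. Scd1 spot 2, not above empty spots on any array, lay at 0.03 ± 0.96. Its arrays ran from -1.85 to 1.48, the widest range of the 14 spots.

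Scd1 spot 3 lay at 0.22 ± 0.64, above 0 on 7 of 10 arrays. Its forward arrays gave 1.54, 0.28, -0.59, -0.42 and -0.61, and its swapped arrays 0.19, 0.54, 0.52, 0.39 and 0.35. The first 2 of the former come from arrays on which the spot was nearly dark, with 73.2 and 58.5 for the separated pool and 10.4 and 91.2 for the non-separated one. On the other 8 arrays the same spot read 1146 to 19349. Without these 2 arrays, a choice made after seeing the data, the ratio was -0.07 ± 0.50, with a mean of -0.54 over the 3 remaining forward arrays. The 3 remaining forward arrays and the 5 swapped arrays, with a mean of 0.40, then had opposite signs and did not overlap, so without the dark readings the spot parted by dye.

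Scd2, the brain form of the desaturase, had 6 spots, with means from -0.18 to 0.57 and a median over spots of 0.13 ± 0.13, above 0 on 9 of 10 arrays. Scd2 spot 1 had the highest mean of the 14 spots, 0.57 ± 0.51, but was above empty spots on 2 arrays only. Its log2 ratios were 1.09, 0.57, 1.23, 0.36 and 0.64 on forward arrays and 1.07, 0.42, -0.53, 0.38 and 0.43 on swapped arrays. The value of -0.53 comes from swapped array 3. Without that array the spot lay at 0.68 and met the rule for a higher call.

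Scd2 spot 3 was higher in the separated pool on every array. Its log2 ratios were 0.09, 0.20, 0.14, 0.57 and 0.39 on forward arrays and 0.23, 0.07, 0.44, 0.28 and 0.16 on swapped arrays. The mean was 0.26 ± 0.16, and 0.403% of all spots lay above 0 on every array. The size, 1.20-fold, was below the limit for a call.

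The Scd2 spots above empty spots did not share that value. Scd2 spot 2 lay at 0.03 ± 0.19, below 0 on 3 arrays, and Scd2 spot 5 at -0.01 ± 0.18, below 0 on 6. Scd2 spot 4, with 45904 for the separated and 45497 for the non-separated pool in the median over 10 arrays, lay at 0.12 ± 0.47. It had a brightness percentile of 99.8 and readings up to 62256. What such brightness does to the ratio of this spot was not tested. Its forward arrays read 0.82, 0.40, 0.47, 0.51 and 0.45, and its swapped arrays read -0.20, -0.63, -0.39, -0.05 and -0.22. The orientations did not overlap and had opposite signs, with means of 0.53 and -0.30, so a dye effect of 0.41 exceeded the difference between pools. Such a split was seen in 3.35% of all 22818 spots that are not controls and in 16.3% of those above empty spots. Among the 14 spots here it was seen in 1, to which Scd1 spot 3 is added when its 2 dark arrays are left out. Scd2 spot 6 lay at -0.18 ± 0.53.

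Scd1 and Scd2 lie near each other on chromosome 19, with Scd4 between them in the RefSeq annotation, and are close in sequence as members of one gene family. Which of these transcripts each clone binds was not tested, so spots named for one may carry signal of another. The 9 Scd1 and Scd2 spots together held 0 calls in either direction.

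**Figure D3:**
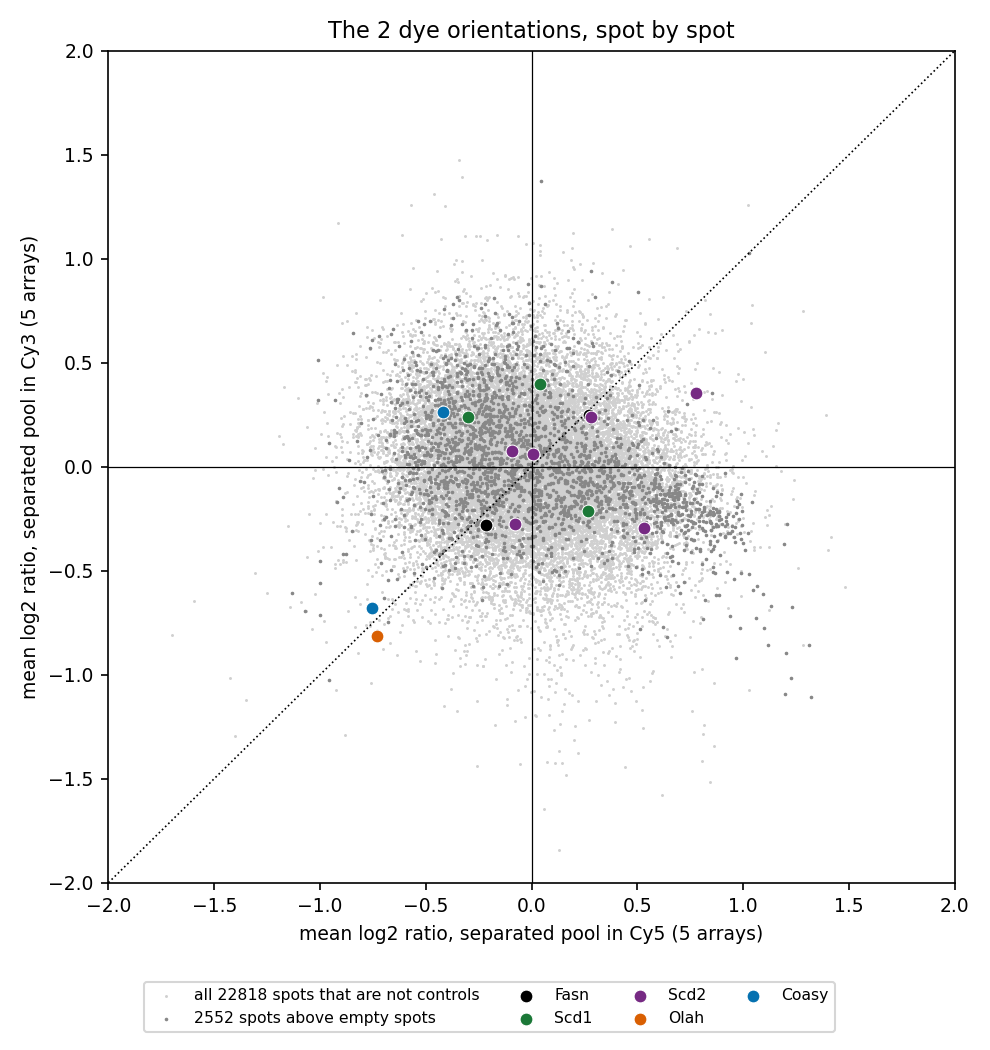
Mean log2 ratio of separated over non-separated on the 5 forward arrays, where Cy5 marks the separated pool (horizontal axis), against the mean on the 5 swapped arrays (vertical axis), for all 22818 spots that are not controls (light grey), the 2552 above empty spots (dark grey) and the 14 spots named in colour. The dotted line marks equal values; Olah (-0.73, -0.81) and Coasy spot 1 (-0.75, -0.68) lie beside it at the lower left, and Scd2 spot 4 (0.53, -0.30) lies far from it.

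Olah had a lower reading in the separated pool in both orientations. Its log2 ratios were -1.02, -1.11, -0.51, -0.57 and -0.44 on forward arrays and -0.74, -0.64, -0.98, -0.69 and -1.01 on swapped arrays. All 10 arrays lay below 0 and the orientations overlapped, which describes a spot chosen by these same ratios. The mean of -0.77 corresponds to 1.71-fold less signal in the separated pool.

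The intensities behind the Olah ratio were low. On forward arrays the separated pool read 36.8, 152, 43.2, 156 and 153 in Cy5, against 250, 764, 198, 491 and 453 for the non-separated pool in Cy3. On swapped arrays the separated pool read 497, 318, 98.7, 145 and 243 in Cy3, against 404, 239, 228, 144 and 263 for the non-separated pool in Cy5. The separated pool was thus the dimmer on all 5 forward arrays and on 2 of the swapped ones. The limits set by empty spots were at least 670 in Cy5 and 1031 in Cy3, above every one of these readings. The median empty spot read 57.8 to 86.8 in Cy5 and 105 to 161 in Cy3. The Olah readings of 36.8 and 43.2 in Cy5 and of 98.7 and 145 in Cy3 lay below that median on their arrays.

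Coasy was followed by 2 spots that differed. Coasy spot 1 had log2 ratios of -0.23, -1.06, -0.83, -1.20 and -0.46 on forward arrays and of -0.03, -0.08, -1.82, -0.91 and -0.55 on swapped arrays. All 10 arrays lay below 0, but 2 of them by less than 0.1. Without swapped array 3, which gave -1.82, the mean was -0.57, short of the 1.5-fold limit, and the call was lost.

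Coasy spot 2 read 0.78, -1.34, -0.24, -0.46 and -0.84 on forward arrays and 0.60, 0.27, -0.34, 0.27 and 0.53 on swapped arrays. Its mean was -0.08 ± 0.68, with 5 arrays on each side of 0. The median over both Coasy spots was -0.40 ± 0.55, below 0 on 7 of 10 arrays. Neither spot was above empty spots on any array, with medians of 238 and 313 for the separated and 562 and 431 for the non-separated pool.

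**Figure D4:**
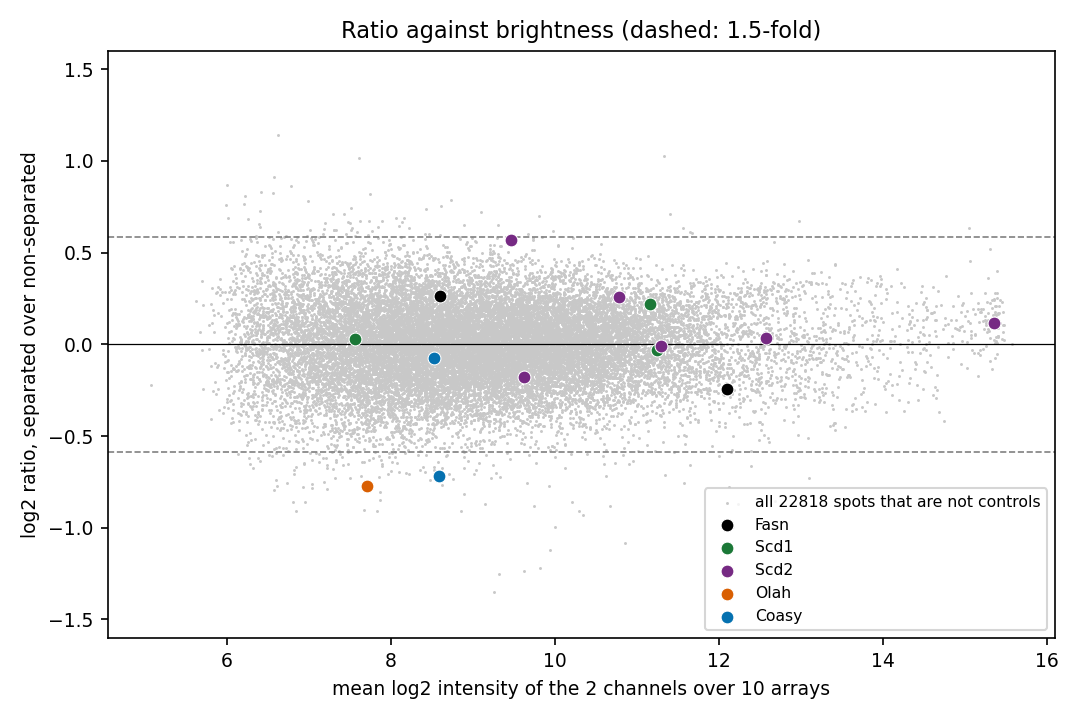
Log2 ratio of separated over non-separated (vertical axis) against the mean log2 intensity of both channels over 10 arrays (horizontal axis) for all 22818 spots that are not controls (grey), with the 14 spots in colour and dashed lines at 1.5-fold. Olah and Coasy spot 1 lie below the lower line in the dim part of the plot, and the spots of Fasn, Scd1 and Scd2 lie between the lines.

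The steps that feed or follow these enzymes were examined through 6 lists of genes. Fatty acid synthesis, with 13 spots of 10 genes, held 0 calls and a median of -0.03. Acly, which makes cytosolic acetyl-CoA from citrate, lay at -0.03 ± 0.28, and Acacb, a carboxylase that makes malonyl-CoA, at -0.10 ± 0.56. The 2 spots of this list above empty spots were of Ndufab1 and Slc25a1. Ndufab1, the mitochondrial acyl carrier protein, lay at -0.23 ± 0.34, and Slc25a1, the mitochondrial citrate carrier, at -0.20 ± 0.35. Their means were -0.46 and -0.38 on forward and 0.01 and -0.01 on swapped arrays. Acaca and Mcat were matched to no spot.

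Desaturation and elongation, with 20 spots of 15 genes, also held 0 calls, with a median of -0.01. Fads1, the delta-5 desaturase of polyunsaturated fatty acids, lay at 0.22 ± 0.12 and above 0 on 9 of 10 arrays, a size like that of Scd2 spot 3. Fads2, the delta-6 desaturase, lay at -0.06 ± 0.37. Elovl5, an elongase of polyunsaturated chains, lay at -0.18 ± 0.25 and -0.30 ± 0.49 on its 2 spots. The second had means of -0.67 on forward and 0.07 on swapped arrays. Elovl2, which elongates longer polyunsaturated chains, lay at 0.17 ± 0.28, and Hacd2, a dehydratase of the elongation cycle, at 0.15 ± 0.33. Their means were -0.08 and 0.38 on forward and 0.41 and -0.07 on swapped arrays. Elovl3, an elongase of saturated chains named here after its values were seen, lay at 0.42 ± 0.26 and above 0 on every array, but was above empty spots on 3 arrays only.

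Acyl-CoA ligases and thioesterases, the functional neighbours of Olah, had 31 spots of 22 genes, 0 calls and a median of 0.03. Dbi, which binds acyl-CoA in the cytosol, was below 0 on all 10 arrays at -0.31 ± 0.17 and was above empty spots on every array, with a size below the limit for a call. The thioesterase gene Acot7 lay at -0.21 ± 0.35. Ppt2, a lysosomal thioesterase gene, lay at 0.13 ± 0.19 on its spot above empty spots and at -0.25 ± 0.61 on its other spot.

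Coenzyme A synthesis and turnover, the functional neighbours of Coasy, had 16 spots of 11 genes, 0 calls and a median of 0.11, and none of the spots was above empty spots. Pank1, a pantothenate kinase that opens the pathway, lay at 0.04 ± 0.60 and -0.01 ± 0.78. Ppcs, which catalyses the step after it, lay at 0.32 ± 0.38 and 0.15 ± 0.50. Pank2, another pantothenate kinase gene, named here after its values were seen, lay at -0.28 ± 0.23 and below 0 on 9 of 10 arrays, with 7 arrays above empty spots. Of the 16 spots, 5 had a mean below 0 and 11 above.

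The regulators had 27 spots of 18 genes, 1 call higher, 0 lower and a median of 0.05. The called spot was Usf1, a transcription factor that acts on lipogenic promoters, at 0.61 ± 0.47, which was above empty spots on 0 arrays. Srebf1, the transcription factor that switches on Fasn and Scd1, lay at -0.06 ± 0.29 and -0.13 ± 0.77. Insig1, which holds the SREBP precursors in the endoplasmic reticulum, lay at 0.38 ± 0.27 on its spot above empty spots, above 0 on 9 of 10 arrays. Pparg, a nuclear receptor of fat cell formation, lay at 0.32 ± 0.40, with means of 0.62 on forward and 0.02 on swapped arrays. The AMPK subunit genes Prkaa1 and Prkag1 lay at 0.18 ± 0.34 and -0.11 ± 0.56 on their spots above empty spots. Their other spots lay at -0.09 ± 0.64 and 0.10 ± 0.61 for Prkaa1 and at 0.14 ± 0.80 for Prkag1. The Prkag1 spot above empty spots had means of -0.64 on forward and 0.41 on swapped arrays, and that of Prkaa1 had -0.12 and 0.48.

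Fatty acid oxidation, the opposing pathway, had 28 spots of 22 genes, 0 calls and a median of 0.02. Its only spot above empty spots was Hadhb, a subunit of the mitochondrial trifunctional protein, at 0.06 ± 0.25. Eci2, an isomerase for unsaturated acyl chains named here after its values were seen, lay at -0.42 ± 0.27 and below 0 on every array. Over all 22818 spots the median was 0.00, and 0.254% were called in either direction.

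**Figure D5:**
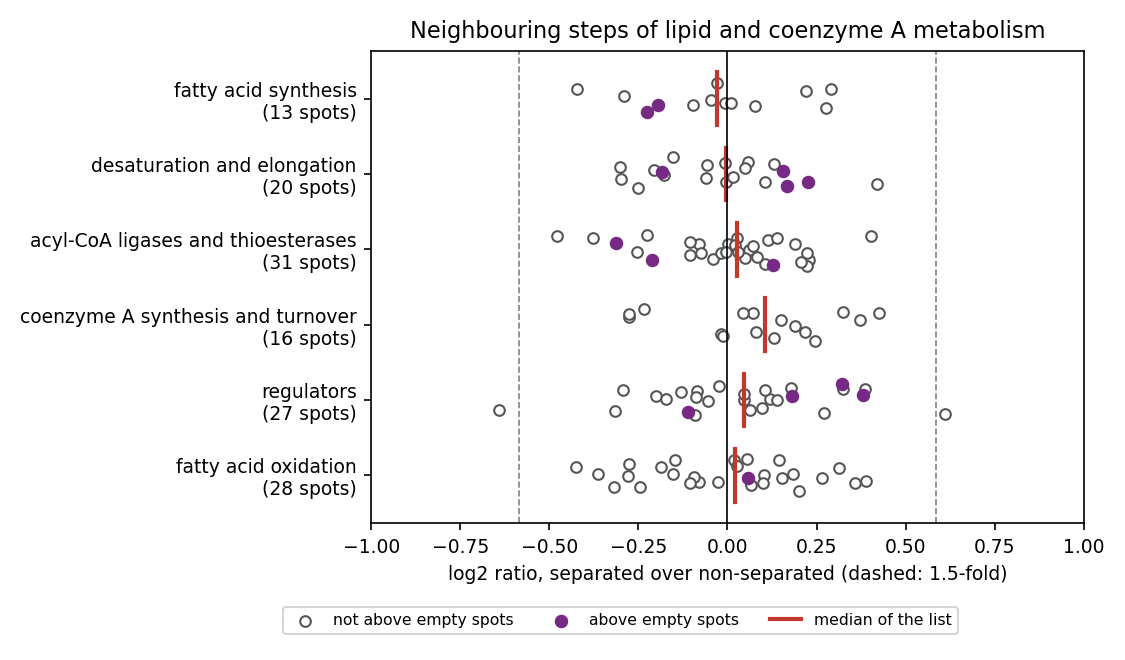
Mean log2 ratio of separated over non-separated over 10 arrays (horizontal axis) for each spot of the 6 lists (rows), filled where the spot was above empty spots, with the list median as a red bar and dashed lines at 1.5-fold. Medians lie between -0.03 and 0.11, and 1 spot met the rule for a call, Usf1 at 0.61.

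For each of the 5 spots above empty spots, the most similar profiles were sought among 1977 spots of other named genes above empty spots, by the root mean square difference over the 10 log2 ratios. Fasn spot 1 was closest to Rtl8c at 0.10, programmed cell death 5 at 0.12 and Zcrb1 at 0.13. Scd2 spot 4 was closest to Stra6l at 0.14, Abi3 at 0.17 and contactin 1 at 0.18. Scd2 spot 2 was closest to Mdp1 at 0.14, nucleolin at 0.15 and the Ia-associated invariant chain at 0.16. Scd2 spot 5 had the DNA segment named for Brigham on chromosome 9 at 0.12, expressed sequence AI837181 at 0.14 and Inpp5f at 0.15. Scd1 spot 3 had no close match, with Urb1 at 0.45, Dennd1b at 0.46 and Mier3 at 0.47. All these spots share the same arrays and pools, and dye effects enter the likeness.

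Marker transcripts of the cell types that the punches could hold were read on the same arrays. Of the PVN markers, Oxt and Crh were above empty spots on 0 arrays and Avp and Trh on 1, Scg2 was above on all 10 on 1 of its 2 spots, and Sim1 and Otp were matched to no spot, so the defining hormones of the nucleus were not seen above empty spots. Astrocyte markers, with 21 spots of 9 genes, had a median of -0.20, below 0 on 9 of 10 arrays as a list. They held 3 calls lower: Aldoc on 2 spots at -0.73 ± 0.35 and -0.87 ± 0.36, and Gjb6 at -1.22 ± 0.40. Gjb6 was above empty spots on 2 arrays only. The other Aldoc spots had no call: 1, above empty spots on 9 arrays, lay at -0.19 ± 0.24. The last, above on 0 arrays, lay at -0.53 ± 0.55. Gja1, without a call, lay at -0.50 ± 0.30, -0.51 ± 0.22 and -0.48 ± 0.36, the second below 0 on every array and the third not above empty spots. Of the 21 spots 7 lay above 0, among them both spots of Fabp7 at 0.20 ± 0.25 and 0.19 ± 0.15, the second above 0 on every array, while Slc1a3 lay at -0.02 ± 0.22 and 0.10 ± 0.39. The summed intensity of the astrocyte markers was 65925 to 72536 in the separated against 38396 to 95890 in the non-separated pool in Cy5. In Cy3 it was 61399 to 160487 against 156770 to 229942. Within 1 dye, such sums compare forward with swapped arrays and are not normalised, so the brightness of the arrays enters them. Median Cy3 intensity of all spots was 835 to 1011 on forward and 436 to 990 on swapped arrays. Markers of myelin, with 30 spots, had 0 calls, a median of -0.14, 21 spots below 0 and 9 above. Of the 4 above empty spots, Mbp lay at -0.43 ± 0.27, below 0 on every array, and Aspa at -0.34 ± 0.45. The others, Cnp at 0.25 ± 0.89 and Mobp at 0.20 ± 0.47, were by far the brightest of the list and weigh most in its sums. Their means were 1.06 and 0.61 on forward and -0.57 and -0.22 on swapped arrays. The summed intensity of the 30 spots was 92809 to 112545 in the separated against 74425 to 116227 in the non-separated pool in Cy5, and 56333 to 145783 against 123692 to 173103 in Cy3.

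Markers of fat tissue, with 5 spots, had 0 calls and a median of 0.07, but Adipoq, the only one above empty spots, lay at -0.26 ± 0.20 and below 0 on every array. Their summed intensity was 5037 to 6905 in the separated against 2871 to 8906 in the non-separated pool in Cy5, and 5340 to 14697 against 11250 to 16491 in Cy3. Blood markers, with 5 spots, had 0 calls and a median of 0.20, and the 3 of them above empty spots, all of Hbb-b1, lay at 0.20 ± 0.26, 0.45 ± 0.16 and 0.34 ± 0.33, the second above 0 on every array. Their summed intensity was 7942 to 19546 in the separated against 5405 to 16049 in the non-separated pool in Cy5, and 9626 to 35487 against 14262 to 35471 in Cy3. The lists of neurons, microglia, vascular cells and choroid plexus held 0 calls, with medians of -0.10, 0.07, -0.10 and 0.19. None of the spots of the astrocyte, myelin, fat and blood lists was at 0 on every array. The part of these markers in the values of Fasn, Scd2, Dbi, Olah and Coasy was not tested.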

How the data were processed

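For both channels of each array, linear spot intensity was deposited and, per the file headers, was quantified in QuantArray with a fixed circle. The authors also deposited a table of log2 ratios, used here as an alternative. The sources used here do not give its normalization. Each of its columns correlated at -0.96 to -0.92 with separated over non-separated, so the table was turned. Its signs after turning were set by the direction used here and are no check on that direction. Its equal spread of 0.355 (median absolute deviation) on every array shows scaling.

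Here the intensities were background corrected (normexp, offset 50) and normalised within each array by loess over all spots, with 1170 empty and 204 other control spots at weight 0 (limma 3.58.1, R 4.3.3). Ratios were turned to separated over non-separated and averaged over the 5 forward arrays (Cy5 marks the separated pool) and over the 5 swapped arrays, then over both. The recovery of known ratios was tested on simulated data. Changed spots were placed there in the brighter part of the array only, with less array noise than the median real spot. That test thus does not cover dim spots such as Olah and Coasy. Tables were made with Python 3.11.15.

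Per the labels, all 10 arrays hold the same 2 RNA pools, so differences were called by size and sign: at least 1.5-fold and 1 sign on every array. Per the file headers, each dye orientation was scanned on a day of its own, so scan and orientation cannot be told apart. Median intensity per array was 286 to 529 in Cy5 and 436 to 1011 in Cy3, and the number of arrays limits the precision.

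Named were all spots of the 5 genes, called list spots, the 4 largest differences above empty spots per list, 10 pathway genes fixed by name, and the 3 most similar spots per bright member. The members and lists were chosen with earlier results of these data known. Alternatives covered background correction, normalisation, orientation, detection, the fold limit and left-out arrays. Clone sequences were not analysed here.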

Additional observations from a re-analysis of the deposited data

Results flagged for a closer look

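In 84 groups of 5 arrays of 1 dye orientation, 6 held a value far from the other 4, where chance alone gives about 4.20 (1 in 20). Scd2 spot 4 had 0.82 on forward array 1, against 0.40 to 0.51 on the other arrays. Ppcs had 1.00 on that same array, against 0.08 to 0.34. Ndufab1 had -1.08 on forward array 2, against -0.34 to -0.26. Acacb had 1.17 on swapped array 1, against -0.48 to -0.05. Insig1 had -0.071 on swapped array 4, against 0.52 to 0.73, the only array on which it was not above 0. Swapped array 3 had a median log2 Cy5 over Cy3 of 0.32 before normalisation, against -1.01 to -0.63. It is the array that gave Scd2 spot 1 its value of -0.53 and Coasy spot 1 its value of -1.82.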

How the results depend on the processing

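A call needs 1 sign on every array, so left-out arrays and single orientations cannot turn a called spot, and they move a spot's mean by less than the SD over arrays; the ranges below are values, not a measure of stability. Olah read -1.01 with offset 0, the one member value that moved by more than its SD. Scd1 spot 1 ran from -0.30 to 0.24 and Scd2 spot 4 from -0.30 to 0.53. Olah ranged from -1.01 to -0.65, Coasy spot 1 from -0.88 to -0.57, Fasn spot 1 from -0.33 to -0.21, and Scd2 spot 3 from 0.20 to 0.36. The 2 called member spots became 1 with print-tip loess (Olah), 1 with median centring in place of loess (Coasy), 1 in the authors' deposited table (Olah, 12 of 14 spots held), 0 when spots had to be above empty spots, and 3 on forward arrays alone (Scd2 spot 1 added). They stayed 2 to 2 with each array left out, but without swapped array 3 these were Olah and Scd2 spot 1.

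Spots called lower were 41 as reported, 62 with offset 0, 125 at a 1.3-fold limit, 12 above empty spots, 690 on forward arrays alone, 332 on swapped arrays alone, and 46 to 57 with an array left out. Spots called higher were 17 as reported, 9 with print-tip loess, 46 at a 1.3-fold limit, 4 above empty spots, 911 on forward and 354 on swapped arrays alone, and 17 to 32 with an array left out, 32 without swapped array 1. Fewer arrays make 1 sign easier to reach by construction. Over all spots that are not controls, the means of the 2 orientations correlated at -0.15, and over those above empty spots at -0.37. Above empty spots, the median absolute dye effect was 0.21, against a median absolute log2 ratio of 0.14. Other causes of these counts, dye effects among them, were not tested. Elsewhere, values that moved by more than the SD were Fads1 at 0.10 and the fatty acid synthesis median at -0.14 in the authors' deposited table, and the fatty acid oxidation median at -0.11 on forward arrays alone.

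No paired analysis was possible because no result comes from a test: all arrays hold the same 2 pools, and equal replicate numbers name arrays only. Signal near that of empty spots limits Olah, Coasy and the coenzyme A list, and 1 pool per group leaves the spread between animals unmeasured.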
